A study of Mus musculus with 12 samples.

Results

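The genes described here are 9 markers and regulators of early endoderm: the transcription factors Sox17, Sox7, Foxa1, Foxa2, Hhex, Gata4 and Gata6, the chemokine receptor gene Cxcr4 and the secreted antagonist Cer1. They were chosen by name, with earlier results of these data known. They make up 9 of the 18193 genes that the array measures by at least 1 probe set of their own. Every probe set whose only gene symbol in the platform annotation was one of these names was taken, which gave 15 of the 45101 probe sets on the array. Of the 15, 10 had a mean log2 signal at or above 5.97, the median of all non-control probe sets (a signal of 62.6), and were tested. These 10 came from 7 genes, and the 5 others (both Gata4 probe sets, both Sox7 probe sets and 1 of the 3 Gata6 probe sets) lay under that level and are given by their signals.

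The study profiled mouse epiblast stem cells (EpiSCs), pluripotent cells that correspond to the epiblast after implantation, with either 1 or 2 chromosome sets. The 12 Affymetrix mouse 430 2.0 arrays came from 4 groups by the titles, with 3 biological replicates each: diploid EpiSC-1 and diploid EpiSC-2 of strain B6D2F1, and haploid EpiSC-1 and haploid EpiSC-2 of strain 129Sv. The medium of all 4 groups was N2B27 supplied with bFGF and Activin A, and the numbers 1 and 2 after EpiSC were taken as the names of different cell lines of that ploidy. Strain and ploidy changed together and cannot be told apart, and there were 2 lines of each. The labels do not say whether a line is 1 clone or whether its replicates were separate cultures, so the p-values between lines measure the spread between these arrays, which may be technical.

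Definitive endoderm, the tissue that forms the gut tube and the lining of its organs, arises from epiblast cells at the anterior primitive streak under strong Nodal signalling, which Activin A imitates in culture. Sox17 and the FoxA factors act in its specification, its cells carry the receptor Cxcr4, and Hhex and Cer1 mark its anterior portion. Gata4, Gata6, Sox7 and Sox17 also act in primitive endoderm and the extraembryonic tissues it forms, and Hhex and Cer1 mark the anterior visceral endoderm. EpiSCs are held in the signal that induces endoderm, and cultures of them are known to differ in how much of these genes they express.

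The signals were scaled by the authors to a common trimmed mean, 500.003 on every array, and array medians lay between 63.4 and 76.3. Over the 19837 tested probe sets the correlation of log2 signals was 0.987 to 0.990 between arrays of the same line, 0.949 to 0.957 between lines of the same ploidy and 0.871 to 0.915 between ploidies. All 8 EpiSC markers were at or above the 62.6 level in all 4 lines, but Fgf5 and Otx2, which mark the primed epiblast, stood at 86.9 ± 32.2 and 74.0 ± 7.25 (SD, n = 3) in haploid EpiSC-1 against 2424 ± 84.9 and 2289.9 ± 60.6 in haploid EpiSC-2. The summed signal of the 8 was 18911 to 19056 in haploid EpiSC-1, 31942 to 33119 in haploid EpiSC-2, 36715 to 37941 in diploid EpiSC-2 and 47924 to 51887 in diploid EpiSC-1. The summed signal of 10 fibroblast feeder markers was 26050 to 26512 in haploid EpiSC-1 and 29062 to 29718 in haploid EpiSC-2, against 1137 to 1248 in diploid EpiSC-1 and 2036 to 2152 in diploid EpiSC-2. None of these feeder markers was at 0, and their part in the results below was not tested. Fewer cells that express a gene and less of its RNA per cell cannot be told apart in such bulk samples.

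Promoter windows, the 250 bases before an annotated transcript start in RefSeq (GRCm38.p6), were available for 5 of the 9 genes. They were searched on both strands for 8 short motifs: forkhead (TGTTTNC), FoxH1 (AATNCACA), Smad (CAGAC), bicoid-type homeodomain (TAATCC), Lim homeodomain (TAATTA), HMG-box (ACAAT), GATA factor (AGATAA) and T-box (AGGTGTGA). The windows of Cer1, at chr4:82885152-82885401, and Cxcr4, at chr1:128592300-128592549, are shown because both genes differed several-fold between the haploid lines and both windows hold a forkhead motif, the motif class that FoxA proteins read. Both genes lie on the minus strand, and capitals mark every motif found.
Cer1: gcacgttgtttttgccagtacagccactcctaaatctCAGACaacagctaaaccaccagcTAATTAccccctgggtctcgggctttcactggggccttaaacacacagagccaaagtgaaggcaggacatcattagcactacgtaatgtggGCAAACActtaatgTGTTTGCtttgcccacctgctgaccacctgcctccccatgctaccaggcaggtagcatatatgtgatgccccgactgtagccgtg
Cxcr4: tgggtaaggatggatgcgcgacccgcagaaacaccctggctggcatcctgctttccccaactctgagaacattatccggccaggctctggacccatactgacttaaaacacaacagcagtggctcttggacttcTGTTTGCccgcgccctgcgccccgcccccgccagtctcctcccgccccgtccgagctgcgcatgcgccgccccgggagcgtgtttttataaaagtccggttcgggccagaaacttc
The Cer1 window held 2 forkhead motifs on opposite strands, 99 and 85 bases before the start, together with CAGAC at 213 and TAATTA at 190 bases. The Cxcr4 window held 1 forkhead motif, 116 bases before the start. A forkhead motif also stood 141 bases before the start in the Foxa1 window, and AGATAA stood in 1 of the 3 Foxa2 windows, 183 bases before that start. Both of these windows lie inside the annotated gene and may hold transcribed sequence of a longer transcript. For that reason the Foxa1 window is not shown, although Foxa1 also differed several-fold between the haploid lines. No motif was found in the Hhex window. Over all 32851 windows of the same length, 17.8% held the forkhead motif, 42.2% CAGAC, 9.99% AGATAA and 4.84% TAATTA. These matches describe the sequence and do not show that a factor binds there.

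Most of the endoderm genes differed between the haploid lines. In haploid EpiSC-1 the signals of Sox17, Foxa2 and Cer1 lay under the 62.6 level, while in haploid EpiSC-2 the same genes stood 6.46 to 40.2 times higher, and Foxa1, Hhex, Cxcr4 and 1 Gata6 probe set were 1.72 to 4.35 times higher. The folds of Sox17, Foxa2 and Cer1 are set against signals under the filter level and were smaller with 16 added to every signal. Of the 10 tested probe sets, 9 were higher in haploid EpiSC-2 and none lower in a limma fit of 4 group means with Benjamini-Hochberg adjustment over all 19837 probe sets. With no signal filter 9 of all 15 were higher and none lower, where 4384 of all 34945 probe sets were higher and 5377 lower. Of the 19837 probe sets tested with the filter, 22.8% were higher in this comparison, and their median log2 difference was -0.04. With each array centred on its own median that difference moved to 0.11 and the calls shifted from 4522 higher and 5305 lower to 6789 higher and 3363 lower. The 9 endoderm probe sets were also called higher on that scale. The signal ranges of the haploid lines did not overlap for any of the 10, as was the case for 58.5% of all tested probe sets. The genes were chosen with earlier results of these data known, so these counts are a description and not a test of the set.

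**Figure D1:**
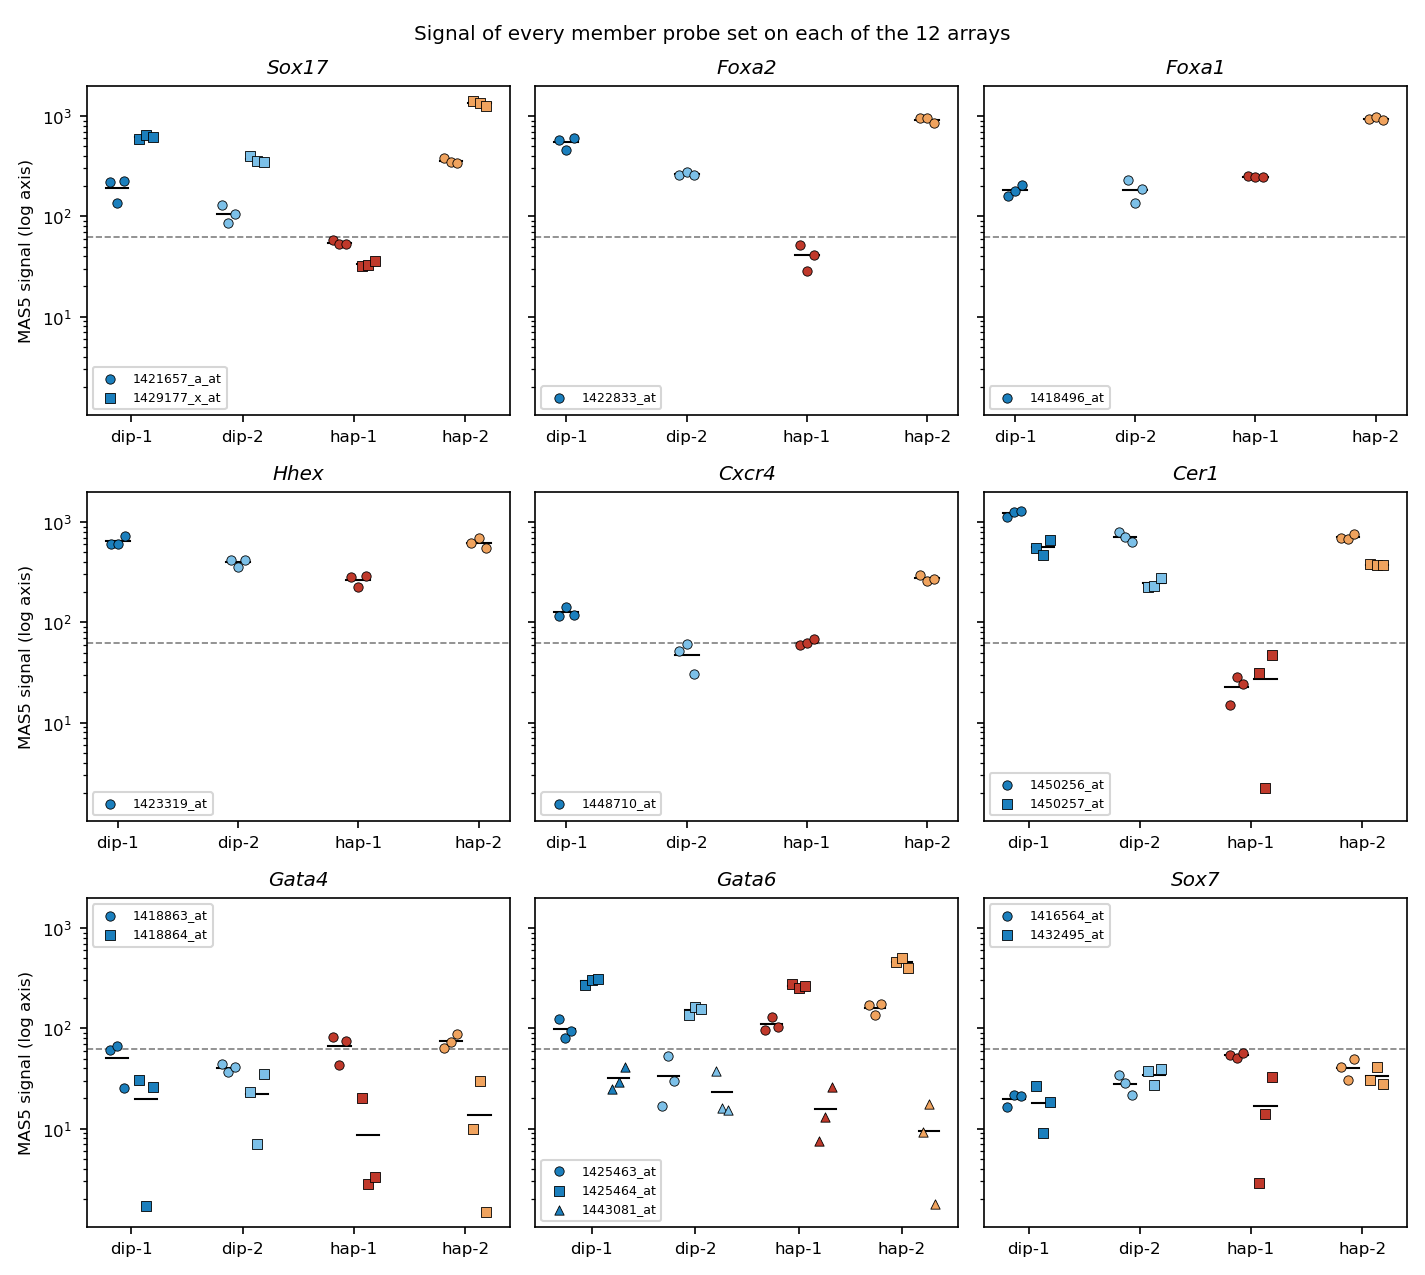
Signal on each array (log axis) for all 15 probe sets of the 9 genes, with 3 arrays for each of diploid EpiSC-1 (dip-1), diploid EpiSC-2 (dip-2), haploid EpiSC-1 (hap-1) and haploid EpiSC-2 (hap-2); marker shapes separate probe sets of a gene, black bars are means and the dashed line is the 62.6 filter level. Sox17, Foxa2 and Cer1 lie under the line in haploid EpiSC-1 and above it in the 3 other lines, and Gata4 and Sox7 lie between 1.46 and 88.1.

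Sox17, a SoxF factor required for definitive endoderm, was measured by 2 probe sets. Probe set 1429177_x_at read 596, 654 and 623 in diploid EpiSC-1, 403, 358 and 351 in diploid EpiSC-2, 32.0, 32.3 and 35.7 in haploid EpiSC-1, and 1413, 1359.6 and 1249 in haploid EpiSC-2. The 4 lines were fully separate, with haploid EpiSC-1 lowest, then diploid EpiSC-2, then diploid EpiSC-1, and haploid EpiSC-2 highest. The log2 difference between the haploid lines was 5.33 ± 0.10 (SE; adjusted p = 3.085e-14), a 40.2-fold difference. The suffix of that probe set marks probes that may also match other transcripts, so the second one was set beside it.

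Probe set 1421657_a_at of Sox17 read 219, 135 and 225 in diploid EpiSC-1, 129, 85.5 and 105 in diploid EpiSC-2, 57.8, 53.1 and 53.4 in haploid EpiSC-1, and 378, 346 and 338 in haploid EpiSC-2. The order of the lines was the same and again no neighbouring lines overlapped, but the difference between the haploid lines was smaller, 2.69 ± 0.20 on the log2 scale (adjusted p = 8.20e-08). The probe sets thus gave the same direction and different sizes. With 16 added to every signal before taking logs, which shrinks differences near the background, the difference was 4.78 for 1429177_x_at and 2.39 for 1421657_a_at, and with the mean of both probe sets it was 4.01.

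Sox7, another SoxF factor, used in primitive endoderm and vascular cells, stayed under the filter level. Its probe set 1416564_at read 16.5 to 21.4 in diploid EpiSC-1, 21.5 to 34.4 in diploid EpiSC-2, 50.3 to 56.9 in haploid EpiSC-1 and 30.6 to 49.5 in haploid EpiSC-2, so that haploid EpiSC-1, where Sox17 was lowest, had the highest Sox7 values. Its other probe set, 1432495_at, spread from 2.86 to 40.8 with all lines overlapping at least 1 other. By that probe set haploid EpiSC-1 had the lowest mean of the 4 lines, 16.6. With no filter on signal, 1416564_at was 1.21 higher in haploid EpiSC-1 than in the diploid mean on the log2 scale (adjusted p = 0.0106), and neither Sox7 probe set was called between the haploid lines.

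Foxa2, a forkhead pioneer factor of endoderm and the anterior streak, read 577, 459 and 603 in diploid EpiSC-1, 261, 276 and 260.2 in diploid EpiSC-2, 52.2, 28.6 and 41.3 in haploid EpiSC-1, and 946, 954 and 845 in haploid EpiSC-2. The order of the lines was that of Sox17, with no overlap between neighbours. The haploid lines differed by 4.53 ± 0.18 (adjusted p = 1.10e-10), a 23.1-fold difference, and by 4.06 with 16 added to every signal. Its relative Foxa1, which acts with Foxa2 in foregut and liver, did not follow that order. Foxa1 read 161, 181 and 205 in diploid EpiSC-1, 232, 136 and 186 in diploid EpiSC-2, 249.7, 248 and 248 in haploid EpiSC-1, and 939, 985 and 906 in haploid EpiSC-2. The diploid lines overlapped, haploid EpiSC-1 lay just above them, and haploid EpiSC-2 lay 3.80-fold above haploid EpiSC-1 (log2 difference 1.92 ± 0.16, adjusted p = 1.75e-07). Haploid EpiSC-1 had Foxa1 above the filter level on every array and a Foxa2 signal under the filter level.

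Hhex, a homeobox repressor of anterior endoderm, liver and thyroid, read 608, 605 and 717 in diploid EpiSC-1, 419, 356 and 413 in diploid EpiSC-2, 284, 226 and 287 in haploid EpiSC-1, and 624, 689 and 553 in haploid EpiSC-2. It was present above the filter level on all arrays, with haploid EpiSC-1 lowest, diploid EpiSC-2 next, and haploid EpiSC-2 and diploid EpiSC-1 overlapping at the top. The haploid lines differed by 1.23 ± 0.12 (2.34-fold, adjusted p = 9.13e-07).

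Cxcr4, the receptor for Cxcl12, used to sort definitive endoderm cells in culture, read 117, 143 and 119 in diploid EpiSC-1, 51.7, 60.3 and 30.4 in diploid EpiSC-2, 58.9, 61.9 and 67.9 in haploid EpiSC-1, and 298, 256 and 268 in haploid EpiSC-2. Diploid EpiSC-2 and haploid EpiSC-1 overlapped near the filter level, diploid EpiSC-1 lay above them and haploid EpiSC-2 was highest. The difference between the haploid lines was 2.12 ± 0.23 (4.35-fold, adjusted p = 3.30e-06). Its ligand went the other way between the haploid lines: Cxcl12 was 1.04 ± 0.14 lower on the log2 scale in haploid EpiSC-2 (adjusted p = 2.59e-05), at 166 ± 6.48 against 344 ± 34.2 (SD, n = 3). The scavenging receptor gene Ackr3 was 0.62 ± 0.16 lower and the G protein gene Gnai2 0.22 ± 0.04 lower. Between the diploid lines receptor and ligand went the same way. There Cxcl12 differed by -1.29 ± 0.14 (adjusted p = 2.93e-06) and Cxcr4 by -1.46 ± 0.23, both lower in diploid EpiSC-2. Of the 6 listed ligands and signalling partners of Cxcr4, all tested, 3 were lower, none was higher and 3 were not called between the haploid lines, where 30.3% of all 11105 tested genes, each by its brightest probe set, were lower and 25.0% higher.

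Cer1, which binds and blocks Nodal and BMP proteins outside the cell, was near background in haploid EpiSC-1 by both of its probe sets. Its probe set 1450256_at read 1122, 1272 and 1293 in diploid EpiSC-1, 798, 710.2 and 629 in diploid EpiSC-2, 15.1, 28.4 and 24.5 in haploid EpiSC-1, and 687, 683 and 764 in haploid EpiSC-2. Haploid EpiSC-2 and diploid EpiSC-2 overlapped, diploid EpiSC-1 lay above both, and haploid EpiSC-1 lay far under them. The haploid lines differed by 5.02 ± 0.18 (32.4-fold, adjusted p = 4.65e-11), and by 4.25 with 16 added to every signal. The other probe set, 1450257_at, read 554, 474 and 667 in diploid EpiSC-1, 225, 231 and 277 in diploid EpiSC-2, 31.5, 2.24 and 47.3 in haploid EpiSC-1, and 379, 375 and 377 in haploid EpiSC-2. Its difference of 4.66 ± 0.75 (adjusted p = 1.20e-04) had a wider error than the first, with 1 of the 3 arrays at 2.24. It was 3.37 with 16 added to every signal and 3.29 without that array.

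The GATA factors, which act in both primitive and definitive endoderm, differed less between the haploid lines. Gata6 probe set 1425464_at read 273, 305 and 308 in diploid EpiSC-1, 134, 163 and 157 in diploid EpiSC-2, 274, 254 and 262 in haploid EpiSC-1, and 462, 499 and 401 in haploid EpiSC-2. Haploid EpiSC-1 and diploid EpiSC-1 overlapped between a lower diploid EpiSC-2 and a higher haploid EpiSC-2. The haploid lines differed by 0.78 ± 0.12 (1.72-fold, adjusted p = 5.96e-05), a call that was lost when all 3 Gata6 probe sets were averaged (0.09, adjusted p = 0.828). Probe set 1425463_at read 80.1 to 123 in diploid EpiSC-1, 16.8 to 53.5 in diploid EpiSC-2, 96.4 to 130.4 in haploid EpiSC-1 and 135 to 173 in haploid EpiSC-2, and its difference of 0.54 ± 0.34 between the haploid lines did not pass (adjusted p = 0.200). The third probe set, 1443081_at, lay between 1.75 and 41.5 on all arrays. Its log2 difference between the haploid lines, -1.06, had the same weight in the average of all 3 as the brighter probe sets. With no filter 1443081_at was called in haploid EpiSC-2 against the diploid mean, at -1.96 (adjusted p = 0.0407), the direction opposite to the tested Gata6 probe sets. Gata4 was near the filter level or under it in every line: 1418863_at read 25.6 to 88.1 and 1418864_at 1.46 to 35.4, and neither was called in any comparison with the filter removed.

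**Figure D2:**
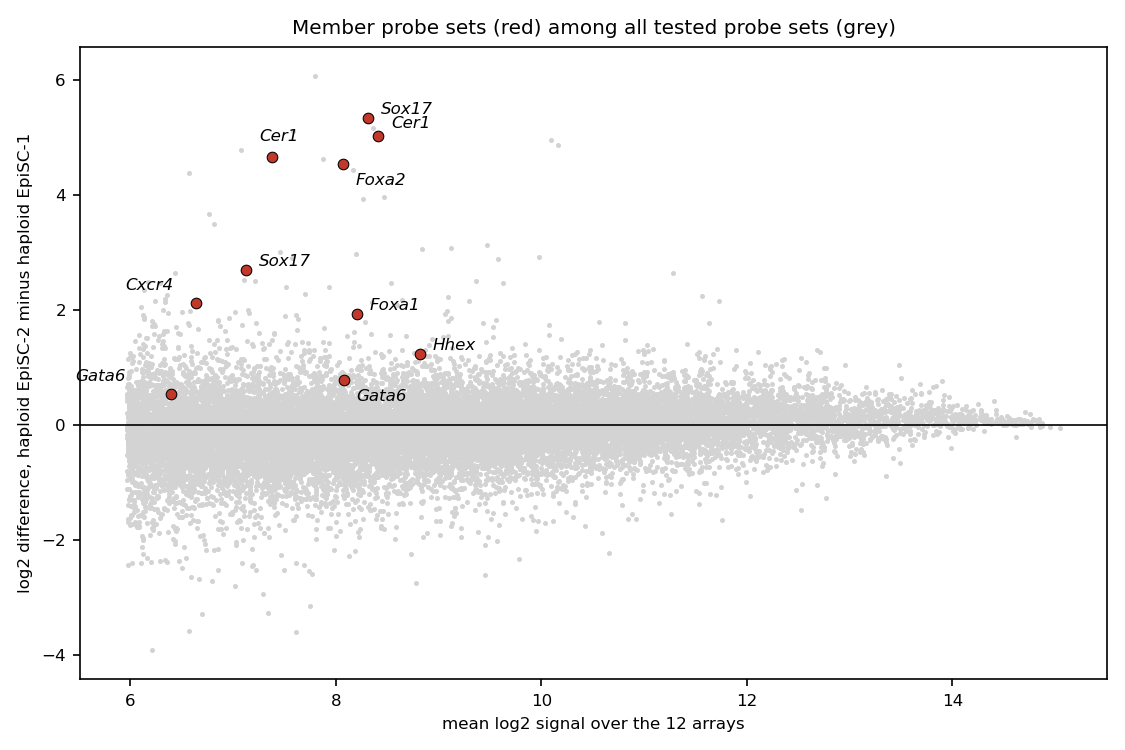
Log2 difference between the haploid lines (haploid EpiSC-2 minus haploid EpiSC-1, vertical axis) against mean log2 signal over the 12 arrays (horizontal axis) for the 19837 tested probe sets in grey and the 10 tested endoderm probe sets in red. All 10 lie above 0, from 0.54 for Gata6 1425463_at to 5.33 for Sox17 1429177_x_at.

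Relative to the diploid mean, taken over the means of both diploid lines, the haploid lines stood on opposite sides for Sox17, Foxa2 and Hhex. In haploid EpiSC-1, the log2 difference was -3.85 ± 0.08 and -1.36 ± 0.18 for the Sox17 probe sets, -3.26 ± 0.15 for Foxa2 and -0.93 ± 0.10 for Hhex. In haploid EpiSC-2, Sox17 was 1.48 ± 0.08 and 1.33 ± 0.18 higher, Foxa2 1.27 ± 0.15 higher and Hhex 0.30 ± 0.10 higher (adjusted p = 0.0197). The small Hhex difference depended on the diploid reference, being -0.05 against diploid EpiSC-1 alone (adjusted p = 0.740), and it did not pass without haploid EpiSC-2 replicate 1 (adjusted p = 0.0569) or replicate 2 (adjusted p = 0.119). These comparisons share their diploid arrays, so their values are given side by side.

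Cer1 was lower in haploid EpiSC-1 by both probe sets, with log2 differences of -5.41 ± 0.15 and -4.62 ± 0.65. In haploid EpiSC-2 it lay near the diploid level: -0.39 ± 0.15 for 1450256_at (adjusted p = 0.0394), a call that was lost under 11 of 23 alternatives, including those without diploid EpiSC-1 replicate 2 or 3, diploid EpiSC-2 replicate 1 or 2, or any 1 haploid EpiSC-2 array (adjusted p = 0.0534 to 0.112). It read 0.0031 against diploid EpiSC-2 alone (adjusted p = 0.989), and 1450257_at differed by 0.03 ± 0.65 (adjusted p = 0.969). Foxa1 and Gata6 were called higher in both haploid lines, Gata6 not under every setting. Foxa1 differed by 0.46 ± 0.14 in haploid EpiSC-1 (adjusted p = 0.00762) and 2.38 ± 0.14 in haploid EpiSC-2, and the first of these did not pass after centring the arrays (0.26, adjusted p = 0.109). Gata6 differed by 1.02 ± 0.29 and 0.32 ± 0.10 in haploid EpiSC-1 and by 1.56 ± 0.29 and 1.10 ± 0.10 in haploid EpiSC-2 for 1425463_at and 1425464_at. The haploid EpiSC-1 value of 1425464_at was not called after centring (0.12, adjusted p = 0.334) and turned to -0.16 against diploid EpiSC-1 alone. With the mean of all 3 Gata6 probe sets neither haploid line was called, at 0.15 (adjusted p = 0.615) and 0.23 (adjusted p = 0.440). That mean includes the Gata6 probe set under the filter level. Against diploid EpiSC-1 alone 1425463_at was not called in either haploid line, at 0.17 and 0.71 (adjusted p = 0.674 and 0.0848). Cxcr4 was 1.85 ± 0.20 higher in haploid EpiSC-2, while its difference of -0.27 ± 0.20 in haploid EpiSC-1 did not pass (adjusted p = 0.247). That difference was called after centring (-0.47, adjusted p = 0.0437) and without diploid EpiSC-2 replicate 3 (-0.42, adjusted p = 0.0264). It was -1.001 against diploid EpiSC-1 alone (adjusted p = 0.00147) and 0.46 against diploid EpiSC-2 alone, which did not pass, so its size and sign depended on the diploid line.

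In haploid EpiSC-1, 3 of the 10 tested probe sets were higher than the diploid mean, where 37.8% of all tested probe sets were, and 6 were lower, where 31.2% were. With arrays centred on their medians, 1 was higher and 7 were lower, and over all probe sets the calls moved from 7504 higher and 6187 lower to 5330 and 8528. In haploid EpiSC-2, 8 of the 10 were higher against 33.0% of all, and 1 was lower against 28.5%.

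**Figure D3:**
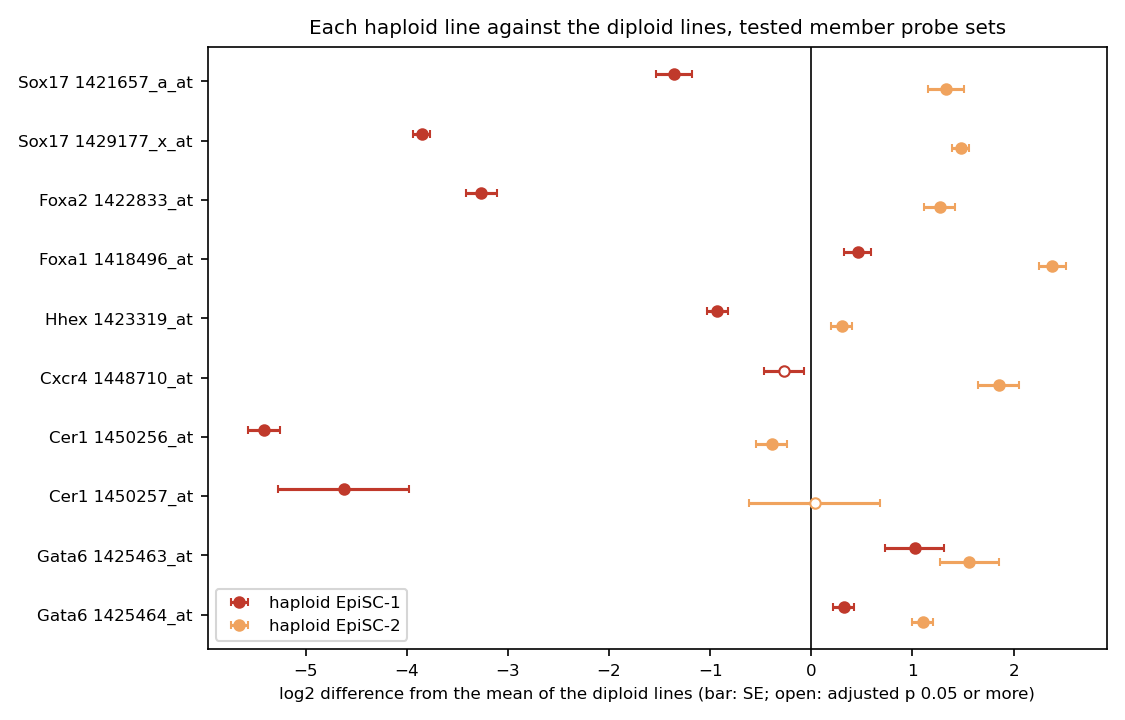
Log2 difference of each haploid line from the diploid mean for the 10 tested endoderm probe sets, with standard errors from the limma fit; open symbols did not pass an adjusted p of 0.05. Sox17, Foxa2 and Hhex lie left of 0 in haploid EpiSC-1 and right of 0 in haploid EpiSC-2, and Foxa1 and Gata6 lie right of 0 in both.

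The diploid lines also differed, with log2 differences smaller in size than those between the haploid lines for every tested gene but Gata6, a contrast of sizes that was not tested. Of the 10 tested probe sets 8 were lower in diploid EpiSC-2 than in diploid EpiSC-1 and none was higher, where 30.9% of all tested probe sets were lower and the median of all was -0.06. The log2 difference was -0.75 ± 0.10 and -0.84 ± 0.20 for the Sox17 probe sets, -1.03 ± 0.18 for Foxa2, -0.70 ± 0.12 for Hhex and -1.46 ± 0.23 for Cxcr4. Cer1 differed by -0.79 ± 0.18 for 1450256_at (adjusted p = 0.00179), and by -1.20 ± 0.75 for 1450257_at, which did not pass (adjusted p = 0.192). Without the haploid EpiSC-1 array that read 2.24 in that probe set, the shared spread was smaller and the same difference passed (adjusted p = 3.54e-05). Gata6 differed by -1.71 ± 0.34 and -0.96 ± 0.12, and Foxa1 by -0.01 ± 0.16 (adjusted p = 0.972). Signal ranges of the diploid lines did not overlap for 9 of the 10 probe sets, against 59.5% of all.

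Between the ploidies, with the line as a random block, none of the 10 probe sets passed, where 15.9% of all tested probe sets did (1859 higher in haploid cells and 1298 lower, or 1369 and 1663 with centred arrays). That share rests on 2 lines per ploidy, and with the 4 line means as units 601 probe sets passed in place of 3157. Without adjustment 2 of the 10 had p under 0.05. Foxa1 differed by 1.42 ± 0.48, higher in the haploid lines (adjusted p = 0.0565, and 0.0357 without diploid EpiSC-2 replicate 1), and it was the 1 probe set of the 10 whose haploid and diploid signals did not overlap, as 28.8% of all did not. Cer1 1450256_at differed by -2.90 ± 0.97 (adjusted p = 0.0528), which passed with centred arrays (-3.02, adjusted p = 0.0442). That value was -5.41 without haploid EpiSC-2 and -0.39 without haploid EpiSC-1. Sox17 1429177_x_at differed by -1.19 ± 0.97 (adjusted p = 0.476) and Foxa2 by -0.998 ± 0.901 (adjusted p = 0.531). Both took their sign from the haploid line that was kept: without haploid EpiSC-1 they were 1.48 and 1.27, and without haploid EpiSC-2 -3.85 and -3.26. Each of these passed, but on 1 haploid line, so that no spread between haploid lines entered the test. With the 4 line means as the only units no endoderm probe set passed either. Feeder marker signal, given above, also differed between the ploidies. Of its 9 tested genes, 7 were higher in the haploid lines, where 10.7% of all genes were, and the median log2 difference was 4.21. Thy1 (-0.25, adjusted p = 0.763) and Dcn (3.97, adjusted p = 0.154) were not called. Postn, Dcn and Twist1 were at or above the filter level in the haploid lines only, and so were tested only through those lines. The part of the feeder markers in the endoderm values was not tested.

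Other genes of endoderm and the anterior streak were taken from a list of 26, of which 25 were on the array and 17 were tested, each by its brightest probe set. Like the other lists, it was chosen with earlier results of these data known, so its counts are a description. Between the haploid lines 11 of the 17 were higher in haploid EpiSC-2 and 2 were lower, with a median log2 difference of 1.80, where 25.0% of all 11105 tested genes were higher, 30.3% were lower and the median was -0.05. Otx2, a homeobox factor of epiblast and anterior tissues that is also one of the EpiSC markers, was 4.96 ± 0.07 higher (adjusted p = 3.51e-15). The Hedgehog ligand gene Shh was 4.62 ± 0.23 higher, the retinoic acid hydroxylase gene Cyp26a1 2.15 ± 0.08 higher and Eomes, a T-box factor upstream of endoderm, 1.80 ± 0.11 higher. Between the diploid lines the counts were turned: 2 of the 17 were higher in diploid EpiSC-2 and 11 lower, with a median of -0.89, where 26.1% of all genes were higher and 29.1% lower. There Cyp26a1 differed by -1.65 ± 0.08 and Otx2 by -0.89 ± 0.07, while the keratin gene Krt19 was 2.12 ± 0.07 higher and the Nodal co-receptor gene Tdgf1 0.33 ± 0.04 higher. Between the ploidies 1 of the 17 was higher in haploid lines, Frzb at 1.93 ± 0.60, and 3 were lower, Tdgf1 at -1.07 ± 0.12, Cldn6 at -1.20 ± 0.26 and Otx2 at -2.82 ± 0.90. Otx2 differed from the diploid mean by -5.30 ± 0.06 in haploid EpiSC-1 and by -0.34 ± 0.06 in haploid EpiSC-2. Of all genes, 10.7% were higher and 8.35% lower in that comparison.

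**Figure D4:**
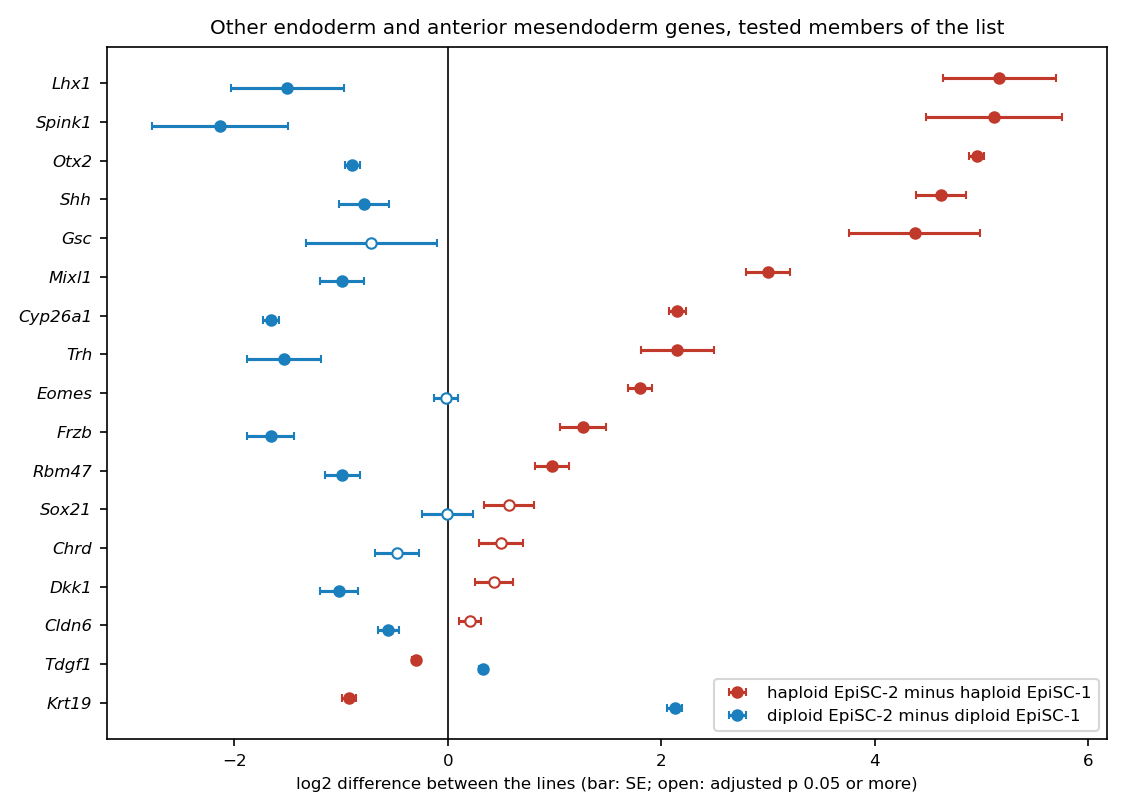
Log2 difference between the haploid lines (red) and between the diploid lines (blue), each EpiSC-2 minus EpiSC-1, with standard errors, for the 17 tested genes of the list of other endoderm and anterior streak genes; open symbols did not pass an adjusted p of 0.05. The red points of 11 genes lie right of 0 and passed, and the blue points of 11 genes lie left of 0 and passed.

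Genes of the Nodal pathway upstream of these were called in both directions between the haploid lines. Of 17 tested genes of a list of 20, 5 were higher and 6 lower in haploid EpiSC-2 against the other haploid line, with a median of 0.06. Nodal itself was 0.52 ± 0.06 higher (adjusted p = 5.40e-06), while the receptor gene Acvr1b differed by -0.70 ± 0.07, the signal transducer gene Smad3 by -0.53 ± 0.06 and Tdgf1 by -0.30 ± 0.04. Between the diploid lines 4 were higher and 6 lower, and between the ploidies 4 were higher and 1 lower, with the Nodal antagonist gene Lefty1 1.09 ± 0.15 higher in the haploid lines. Of all genes, 25.0% were higher and 30.3% lower between the haploid lines, 26.1% and 29.1% between the diploid lines, and 10.7% and 8.35% between the ploidies. The calls between ploidies, here and in the preceding list, rest on 2 lines of each ploidy.

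Genes of primitive and visceral endoderm were also called in both directions between the haploid lines. Of 12 tested genes of a list of 25, 2 were higher and 5 lower in haploid EpiSC-2 against the other haploid line, with a median of -0.02, and between the diploid lines 6 were higher and 4 lower. The shares of all genes are those given for the Nodal pathway. Between the ploidies 7 were higher in the haploid lines and none was lower, against 10.7% and 8.35% of all genes, with a median of 1.02: the plasminogen activator gene Plat by 3.57 ± 0.30, the basement membrane collagen genes Col4a1 and Col4a2 by 2.08 ± 0.30 and 2.65 ± 0.52, and the endocytic adaptor gene Dab2 by 1.78 ± 0.27. Collagens and adaptors of this kind are also made by fibroblasts, most of whose markers were higher in the same lines, and that part was not tested. These calls between ploidies also rest on 2 lines of each. Of 9 defining visceral endoderm markers, 6 (Afp, Ttr, Apoa1, Apoa4, Apob and Cubn) were under the filter level in all 4 lines. The summed signal of the 9 was 440 to 554 in diploid EpiSC-1, 361 to 454 in diploid EpiSC-2, 882 to 1102 in haploid EpiSC-1 and 1020 to 1210 in haploid EpiSC-2. Most of that difference came from Dab2, at 531 and 634 in haploid EpiSC-1 and EpiSC-2 against 199 and 143 in diploid EpiSC-1 and EpiSC-2, and Pdgfra, at 250.4 and 258 against 82.5 and 70.0, both also made by fibroblasts. Of 13 endothelial and blood markers, where Sox7 and Sox17 are also used, 11 were under the filter level in their mean over the arrays, and the summed signal was 893 to 965 in haploid EpiSC-1, 685 to 773 in haploid EpiSC-2 and 221 to 323 in the diploid lines. Runx1, a factor of blood development, made up most of that difference, at 607 and 379 in the haploid lines against 35.3 and 19.8 in the diploid lines. The 8 cardiac mesoderm markers, a tissue where Gata4 and Gata6 are used, summed to 672 to 853 in haploid EpiSC-1, 444 to 507 in haploid EpiSC-2 and 299 to 463 in the diploid lines. Tnnt2 read 408 and 162 in the haploid lines against 23.3 and 39.5 in the diploid lines, and Nkx2-5 and Isl1 were also higher in both haploid lines. Myh6 went the other way, at 54.3 and 27.2 against 83.4 and 76.3. Hand1, Hand2, Mesp1 and Tbx5 had no common direction, with Hand1 highest in diploid EpiSC-2 at 107. Of 6 markers of naive pluripotency 2 were tested, and both were lower in the second haploid line than in the first. The log2 differences were -0.89 ± 0.17 for Klf4 and -0.74 ± 0.28 for Tfcp2l1. The untested markers did not all share that direction. From haploid EpiSC-1 to haploid EpiSC-2, mean signals rose for Zfp42 (87.7 and 107), Esrrb (52.0 and 62.3) and Nr0b1 (10.2 and 31.1). Dppa3 fell (71.3 and 58.6). The 6 summed to 785 to 942 in haploid EpiSC-1, 549 to 648 in haploid EpiSC-2, 223 to 266 in diploid EpiSC-1 and 521 to 633 in diploid EpiSC-2.

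The genes whose pattern was nearest to each member were found by the root mean square difference of log2 signals over the 12 arrays, each gene centred on its own mean and taken by its brightest probe set. Among the members themselves Sox17 and Foxa2 were the nearest pair, at 0.38. Sox17 and Foxa2 also shared the same 3 nearest genes: Shh at 0.44 and 0.48, the insulin receptor substrate gene Irs4 at 0.57 and 0.62, and the pepsinogen gene Pga5 at 0.65 and 0.44. Cer1 lay nearest to Otx2 at 0.28, the growth factor gene Fgf5 at 0.30 and the Lim homeobox gene Lhx1 at 0.63. Its distance to Sox17 was 0.89 and to Foxa2 1.05. Cxcr4 lay nearest to Cyp26a1 at 0.34, Shisa2 at 0.34 and Fgf8 at 0.40, and Foxa1 to Sohlh2 at 0.37, Six2 at 0.38 and Pag1 at 0.39. The flatter patterns of Hhex and Gata6 had closer neighbours: Med25, Wdr4 and Smim13 at 0.13 to 0.14 for Hhex, and Polr3f, B3glct and Cachd1 at 0.13 to 0.15 for Gata6. The arrays of a line are alike, so a likeness over 12 arrays is mainly a likeness over 4 lines, and it was used as a description with no test.

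**Figure D5:**
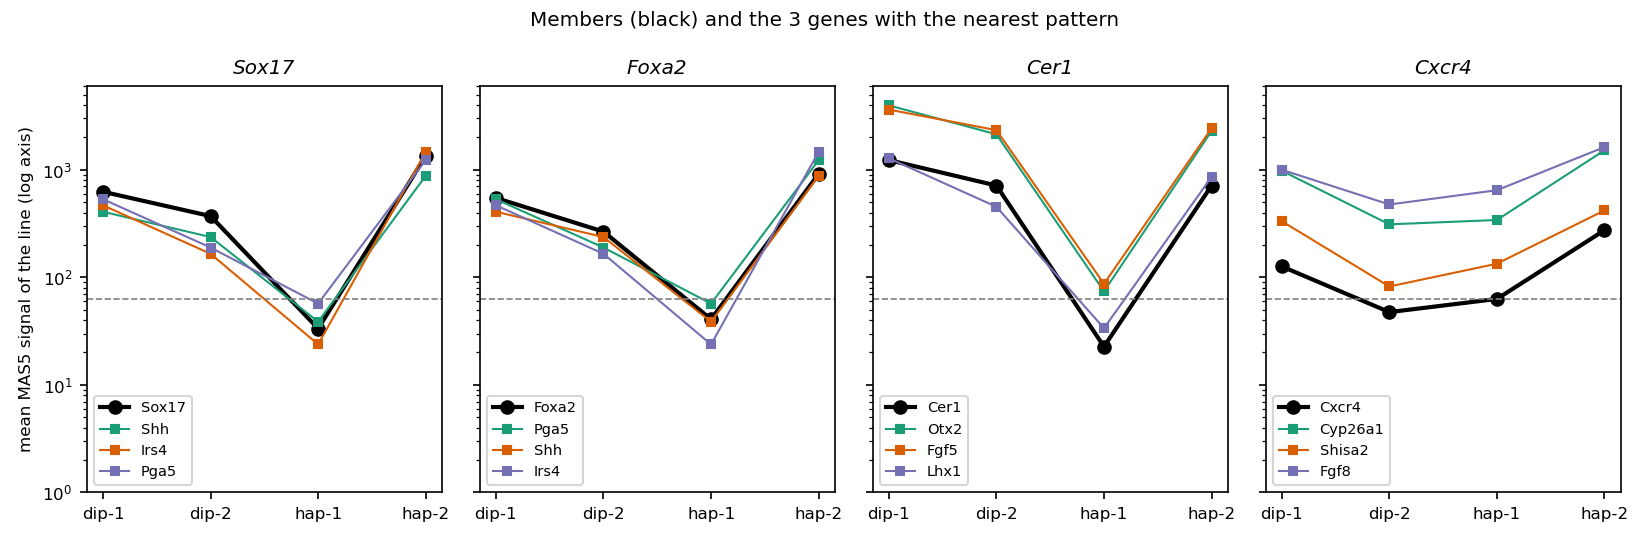
Mean signal of each line (log axis) for Sox17, Foxa2, Cer1 and Cxcr4 in black and for the 3 genes nearest to each in colour, over diploid EpiSC-1 (dip-1), diploid EpiSC-2 (dip-2), haploid EpiSC-1 (hap-1) and haploid EpiSC-2 (hap-2); the dashed line is the 62.6 filter level. Sox17, Foxa2 and Cer1 dip to under that level in haploid EpiSC-1, and Cxcr4 is under it in diploid EpiSC-2 and near it in haploid EpiSC-1.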

How the data were processed

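The deposited values are signal intensities that the authors made with MAS5, per the submitters' processing notes. They are on a linear scale, and the version is not given in the sources used here. Every signal was above 0, and log2 signals were used with no pseudocount or further scaling. Of 45101 probe sets, 64 controls were dropped, 34945 had 1 gene symbol in the platform annotation, 932 several and 9160 none; those with 1 symbol and a mean log2 signal at or above 5.97 were tested (19837 probe sets). No detection call or scan date was used, and the size of a fold is uncertain where a line is near the background.

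Comparisons between lines used limma 3.58.1 (R 4.3.3) with 4 group means over the 12 arrays and empirical Bayes moderation with an intensity trend. For ploidies the line entered as a random block, with a correlation of 0.769 from duplicateCorrelation (statmod 1.5.0). Probe sets with a two-sided Benjamini-Hochberg adjusted p under 0.05 were called. Lists used the brightest probe set of each gene. In a check on data drawn with the spread within lines and 200 changed probe sets, the haploid line comparison recovered 81% of 2-fold and 100% of 4-fold changes, with 11 of 192 calls on unchanged probe sets. Between ploidies, with the spread between lines added, 43% and 91% were recovered, with 474 of 608 calls on unchanged probe sets. Many more probe sets were called in the data, 49.5% of those tested between haploid lines and 15.9% between ploidies. These rates belong to the drawn setting and cannot be carried over to the data.

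Same-numbered replicates of different lines deviated with correlations of -0.04 to 0.08, none of 18 over 0.1, so the numbers were not used as pairs. The members and lists were chosen with earlier results of these data known. Named were all members, up to 4 called genes of a list with the lowest p, and the 3 genes nearest in pattern to each tested member. Promoter sequences are from RefSeq. Alternatives covered the normalization, pseudocount, filter, probe set choice, trend, blocks, reference line, and each array and line left out.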

Additional observations from a re-analysis of the deposited data

Results flagged for a closer look

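For 3 genes the 2 haploid lines differed from the diploid mean in opposite directions on every array, and the test of the difference between the haploid lines passed. The values are log2 differences, first for haploid EpiSC-1 and then for haploid EpiSC-2 against the diploid mean. Sox17 1429177_x_at gave -3.85 and 1.48, 5.33 apart (limma adjusted p = 3.085e-14). Sox17 1421657_a_at gave -1.36 and 1.33, 2.69 apart (adjusted p = 8.20e-08). Foxa2 gave -3.26 and 1.27, 4.53 apart (adjusted p = 1.10e-10). Hhex gave -0.93 and 0.30, 1.23 apart (adjusted p = 9.13e-07). Its haploid EpiSC-2 signals overlapped those of the diploid arrays. Against diploid EpiSC-1 alone the haploid EpiSC-2 value of Hhex was -0.05 (adjusted p = 0.740), so its direction depended on the diploid line. The 2 sets of differences share their diploid arrays.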

How the results depend on the processing

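Precision was limited by 3 arrays per line and 2 lines per ploidy, and signals under the 62.6 level have no detection call behind them. Of 1100 alternative values for the 50 member results, 1053 stayed on their side of the threshold, though values that were not called could change sign (between ploidies Sox17 1421657_a_at ran from -1.36 to 1.33), 22 lost the call, 20 gained it and 5 changed sign from or to a called value: between ploidies Sox17 1429177_x_at was 1.48 and Foxa2 1.27 without haploid EpiSC-1, Gata6 1425464_at was -0.16 in haploid EpiSC-1 and Hhex -0.0502 in haploid EpiSC-2 against diploid EpiSC-1 alone, and Cer1 1450256_at was 0.0031 in haploid EpiSC-2 against diploid EpiSC-2 alone.

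Between ploidies the 0 endoderm calls became 1 with centred arrays, with quantile normalization, with log2(signal + 16), without diploid EpiSC-2 replicate 1 and without the line diploid EpiSC-1, 2 with no filter, 3 without either haploid line, and 4 with no line block. Where a line was left out, its ploidy was 1 line only, with no spread between lines on that side. Over all probe sets the 3157 calls became 5655 with no filter, 1922 with a mean signal filter of 200, 1990 without haploid EpiSC-1, 601 with line means as units and 9133 with no line block. With 1 probe set per gene fewer features were tested, and calls were 1913 between ploidies, 6288 between haploid lines, 6196 between diploid lines, and 8149 and 7367 for haploid EpiSC-1 and EpiSC-2 against the diploid mean; with the mean of a gene's probe sets these were 1603, 4616, 4675, 6466 and 5670. That last setting gave 5 endoderm calls for each haploid line against the diploid mean, among 7 tested, and the filter of 200 gave 5 between the diploid lines. The cause of the other changes was not tested.

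Leaving out 1 array at a time gave 9 to 9 endoderm calls between haploid lines, 8 to 9 between diploid lines, 0 to 1 between ploidies, and 9 to 10 and 7 to 9 for haploid EpiSC-1 and EpiSC-2 against the diploid mean. With the replicate number as a block, which does not pair samples here, endoderm calls were 9, 8, 0, 9 and 9 in the same order, and calls over all probe sets were 9882, 10588, 2692, 13704 and 12240.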
